A study of Danio rerio with 12 samples.

Results

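The caspases and the apoptosome are described here by 7 genes of the zebrafish (Danio rerio), chosen by symbol as casp2, casp6a, casp8, casp9, apaf1, cycsb and xiap, out of 32057 gene IDs measured. The gene name table writes several of them in capitals and casp6a without its paralog letter, and 1 gene ID answers to each symbol. They appear below as CASP2, CASP6, casp8, CASP9, APAF1, cycsb and xiap. All 7 passed the filter on low counts that left 18834 genes for testing.

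Bulk RNA sequencing was carried out on primary growth follicles of AB strain fish, the stage at which the oocyte enlarges before yolk uptake. Wild-type fish (cdkn1a +/+) and heterozygotes (cdkn1a +/-), in which CRISPR/Cas9 had disrupted 1 copy of cdkn1a, which encodes the cell cycle inhibitor p21, were sampled at 50 days (50 dpf) and at 8 months (8 mpf) after fertilization, with 3 libraries in each of the 4 groups. Homozygous mutants die as embryos, per the series description, so the heterozygotes carry a partial loss in every cell, and the follicle samples hold the oocyte together with its somatic cells. The labels do not say whether the replicates came from separate fish, so the p-values measure the spread between these samples, which may be technical.

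Caspases are proteases made as inactive precursors, and their activation is the executing step of apoptosis. In the mitochondrial route, cytochrome c leaves the mitochondria and binds APAF1, which assembles into the apoptosome and recruits and activates the initiator caspase-9; caspase-9 then cleaves the executioner caspases. Caspase-8 starts the death receptor route, and XIAP binds and inhibits caspase-9 and some of the executioners. In the ovary, apoptosis takes part in the removal of follicles. RNA levels do not show whether a caspase has been cleaved or is active.

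Library totals ran from 31044931 to 96839220 estimated counts. cdkn1a itself ran from 3.37 to 3.87 CPM (counts scaled to the size of the library) in wild type and from 0.422 to 0.519 CPM in heterozygotes at 50 dpf. At 8 mpf it ran from 0.668 to 1.13 CPM in wild type against a range from 0.397 to 0.651 CPM in heterozygotes. The genotypes thus did not overlap at either age, as held for 57.4% of all genes tested at 50 dpf and 47.0% at 8 mpf. By the chi-square per degree of freedom between replicate libraries, a pair of libraries stood apart. Wild-type replicate 2 at 8 mpf gave 82.8 and 59.8 against the others of its group (14.6 between those), and heterozygote replicate 1 at 50 dpf gave 57.7 and 78.9 (15.1 between the others). The remaining pairs ran from 13.4 to 34.1, and results that rest on either library are given without it. Summed oocyte markers (13 genes, all tested) ran from 22603 to 28441 CPM in wild type at 50 dpf. In heterozygotes of that age they ran from 39672 to 53233 CPM, with 10 of the markers higher and 1 lower. The sum was carried by zp genes such as zp2.2 (7245 to 13221 CPM) and zp3 (4175 to 8333 CPM), while figla went from 238 to 142 CPM. Summed liver markers (15 genes, 13 tested) ran from 265 to 281 CPM and from 28.2 to 34.1 CPM in the same groups, with hp at 0 in both and TTR at 0 in the heterozygotes. Summed markers of follicle somatic cells ran there from 533 to 565 CPM in wild type, with the heterozygotes between 681 and 781 CPM. The sum was carried by CYP11A1 (368 to 529 CPM) and CYP17A1 (128 to 169 CPM); 2 of the 14 tested somatic markers were higher and 4 lower, and gsdf went from 38.8 to 15.6 CPM. At 8 mpf the oocyte sums ran from 14812 to 19044 CPM in wild type against a range from 23031 to 25934 CPM in heterozygotes. Only 3 of the 13 oocyte markers were higher at that age and 1 was lower, and figla (48.8 to 33.4 CPM) and DAZL (126 to 103 CPM) had lower means. Summed stroma markers ran there from 22.0 to 29.6 CPM and from 14.0 to 16.1 CPM, and leukocyte markers from 39.7 to 59.4 CPM and from 23.4 to 40.4 CPM. Liver markers stood the other way round at that age, from 7.15 to 8.51 CPM and from 14.1 to 18.8 CPM, with hp and TTR at 0 in both genotypes. In bulk follicles, fewer cells of a type and less RNA per cell cannot be told apart, and the part of these marker differences in the results below was not tested.

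The question of the first comparison is what the loss of 1 cdkn1a copy changes in follicles of young fish. At 50 dpf the apoptosome scaffold APAF1 and the initiator CASP9 were higher in heterozygotes, while cytochrome c (cycsb), CASP2, casp8 and CASP6 were lower. Thus 6 of the 7 genes passed the threshold (edgeR quasi-likelihood test, Benjamini-Hochberg adjusted over all genes tested, 0.05), 2 higher and 4 lower, against 40.8% of all genes tested (19.6% higher, 21.2% lower). The median log2 fold change was -0.51 over the 7 genes and -0.07 over all genes. Without heterozygote replicate 1 at 50 dpf 5 passed, 1 higher and 4 lower. The split was 1 to 4 when the upper quartile set the scale, and 0 to 5 when the library size alone did. That last scaling moved the median of all genes by -0.33 on the log2 scale at 50 dpf and by -0.18 at 8 mpf. At 8 mpf only CASP2 and CASP6 (lower) and xiap (higher) passed, 3 of 7 against 28.1% of all genes (12.6% higher, 15.5% lower). Both of those scalings gave a split of 0 to 3 there, and without heterozygote replicate 2 at 8 mpf only CASP6 passed, 1 of 7.

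**Figure D1:**
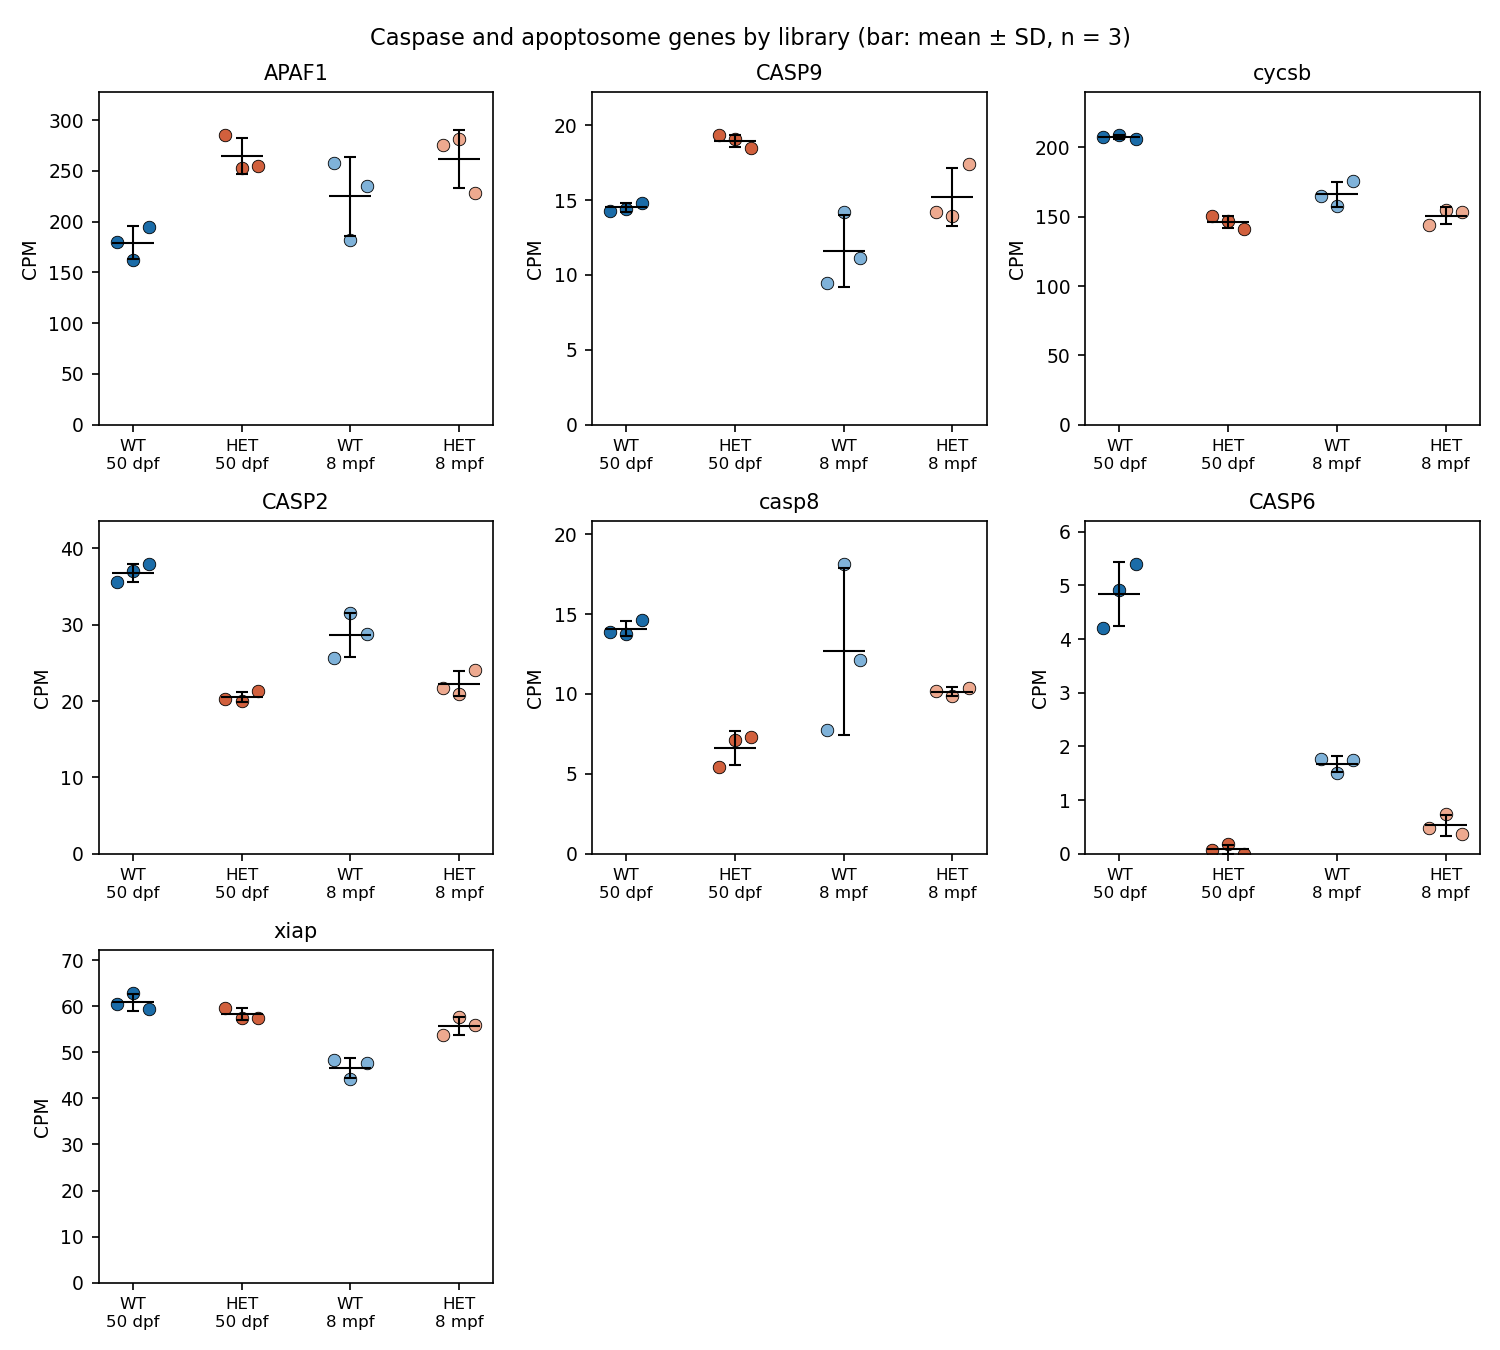
CPM of each gene (linear axis from 0) in each of the 12 libraries, with the mean and SD of the 3 libraries per group as bars, for wild type (WT) and heterozygotes (HET) at 50 dpf and 8 mpf. APAF1 and CASP9 are higher in the heterozygotes at 50 dpf, whereas cycsb, CASP2, casp8 and CASP6 are lower.

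APAF1 (ENSDARG00000021239), the scaffold of the apoptosome, measured 180, 162 and 195 CPM in the wild-type libraries and 285, 253 and 255 CPM in the heterozygous libraries at 50 dpf. Every heterozygous library lay above every wild-type library. The log2 fold change was 0.56 (SE 0.13, n = 3 and 3), with an adjusted p of 0.00537 by edgeR. With library size alone it was 0.22, with an adjusted p of 0.109 by edgeR. At 8 mpf, APAF1 measured 258, 182 and 235 CPM in wild type, against 276, 281 and 229 CPM in heterozygotes. These ranges overlapped, and the difference of 0.22 (95% interval -0.07 to 0.51) did not pass the test (adjusted p = 0.243, edgeR).

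CASP9 (ENSDARG00000004325), the caspase that the apoptosome activates, measured 14.3, 14.4 and 14.8 CPM at 50 dpf in wild type, against 19.3, 19.0 and 18.5 CPM in heterozygotes. The groups did not overlap, and the spread within each was small. The log2 fold change was 0.39 (SE 0.14) with an adjusted p of 0.0486 by edgeR, just inside the threshold. It fell to 0.31 (adjusted p = 0.108, edgeR) under upper quartile scaling and to 0.05 (adjusted p = 0.825, edgeR) with library size alone. The call was also lost without any 1 library of the 50 dpf groups or of the heterozygotes at 8 mpf, or without wild-type replicate 3 at 8 mpf, with adjusted p-values (edgeR) from 0.0523 to 0.126 and log2 fold changes from 0.37 to 0.40. With no filter on low counts its adjusted p was 0.0889 (edgeR). At 8 mpf, CASP9 measured 9.48, 14.2 and 11.1 CPM in wild type, against 14.2, 14.0 and 17.4 CPM in heterozygotes. Wild-type replicate 2 reached the level of the heterozygotes. The difference of 0.39 (SE 0.14) had an adjusted p of 0.0603 by edgeR (0.0345 by DESeq2) and, without that replicate, was 0.55 with an adjusted p of 0.00658.

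cycsb (ENSDARG00000044562), a cytochrome c gene, measured 208, 209 and 206 CPM at 50 dpf in wild type, against 150, 147 and 141 CPM in heterozygotes. The heterozygotes held 70.5% of the wild-type mean, and no library overlapped. The log2 fold change was -0.51 (SE 0.08) with an adjusted p of 2.71e-04 by edgeR, and -0.84 with library size alone. The wild-type libraries of 8 mpf held 165, 158 and 176 CPM, the heterozygous ones 144, 155 and 154 CPM. The groups again did not overlap, but the difference of -0.14 (95% interval -0.30 to 0.02) did not pass the test (adjusted p = 0.192, edgeR). It passed under upper quartile scaling (-0.23, adjusted p = 0.0373, edgeR) and with library size alone (-0.32, adjusted p = 0.00750, edgeR). The second cytochrome c gene, cycsa, had no count in any library.

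CASP2 (ENSDARG00000062052) encodes an initiator caspase that in mammals is activated on the PIDD1 and CRADD platform. It measured 35.5, 37.0 and 37.9 CPM at 50 dpf in wild type, against 20.3, 20.1 and 21.3 CPM in heterozygotes. The heterozygotes held 55.8% of the wild-type mean, far outside the spread of either group (log2 fold change -0.84, SE 0.10, adjusted p = 4.93e-05 by edgeR). The wild-type libraries of 8 mpf held 25.7, 31.5 and 28.8 CPM, the heterozygous ones 21.7, 21.0 and 24.1 CPM, again without overlap. The difference there was -0.37 (SE 0.10) with an adjusted p of 0.0160 by edgeR, and -0.56 with library size alone. It was -0.35 (adjusted p = 0.0647, edgeR) without heterozygote replicate 1 and -0.33 (adjusted p = 0.0637, edgeR) without heterozygote replicate 2 at 8 mpf.

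The other initiator, casp8 (ENSDARG00000058325), which death receptors recruit through FADD, measured 13.9, 13.7 and 14.6 CPM at 50 dpf in wild type, against 5.40, 7.15 and 7.30 CPM in heterozygotes. The heterozygotes held 47.0% of the wild-type mean (log2 fold change -1.09, SE 0.24, adjusted p = 0.00346 by edgeR). At 8 mpf wild type spread from 7.73 through 12.1 to 18.1 CPM, the highest in replicate 2, while the heterozygotes lay close together at 10.2, 9.84 and 10.4 CPM. All heterozygous values fell inside the wild-type range. The difference of -0.32 (95% interval -0.83 to 0.18) did not pass the test (adjusted p = 0.331, edgeR). With wild-type replicate 2 left out it was 0.02 (adjusted p = 0.964, edgeR), and without wild-type replicate 1 it was -0.59 (adjusted p = 0.0277, edgeR).

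CASP6 (ENSDARG00000093405), an executioner that cleaves lamin A in human cells, showed the largest fitted difference of the 7 genes at 50 dpf. Wild-type libraries held 256, 165 and 294 counts, whereas the heterozygous libraries held 2, 5 and 0 counts, which is a mean of 4.84 ± 0.594 CPM (SD, n = 3) against 0.0818 ± 0.0887 CPM (SD, n = 3). The library at 0 allows up to 3 counts' worth of transcripts, by counting error only. The fitted log2 fold change was -5.91 (SE 0.49, adjusted p = 2.94e-06 by edgeR). At 8 mpf CASP6 held 87, 123 and 101 counts in wild type and 29, 32 and 35 counts in heterozygotes. These are 1.67 ± 0.142 CPM and 0.529 ± 0.195 CPM (SD, n = 3 each), with no overlap. The difference was -1.70 (SE 0.35, adjusted p = 0.00329 by edgeR). limma-trend on the deposited normalized values kept its size but not the call, with log2 fold changes of -1.68 and -1.72 and adjusted p-values of 0.0724 and 0.351 for pseudocounts of 1 and 0.1. In the RefSeq annotation of assembly GRCz12tu, casp6a lies between the coding genes casp6b.1 and casp6b.2. Whether reads were split among these genes was not tested. casp6b.2 had no count in any library. casp6b.1 measured 1.90 CPM at 50 dpf in wild type, against 1.05 CPM in heterozygotes (log2 fold change -0.85, adjusted p = 0.0287 by edgeR).

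xiap (ENSDARG00000016143), the caspase inhibitor, measured 60.4, 62.8 and 59.3 CPM at 50 dpf in wild type, against 59.7, 57.5 and 57.4 CPM in heterozygotes. The groups overlapped, and the log2 fold change was -0.06 (95% interval -0.23 to 0.10, adjusted p = 0.539 by edgeR). With library size alone it was -0.40 and passed (adjusted p = 0.00218, edgeR). The wild-type libraries of 8 mpf held 48.3, 44.2 and 47.6 CPM, the heterozygous ones 53.7, 57.6 and 55.9 CPM, every heterozygous library above every wild-type one. The difference was 0.26 (SE 0.08, adjusted p = 0.0254 by edgeR). It was 0.17 (adjusted p = 0.123, edgeR) under upper quartile scaling and 0.07 (adjusted p = 0.538, edgeR) with library size alone. The call was also lost without wild-type replicate 2 at 50 dpf, without wild-type replicate 2 or 3 at 8 mpf, and without heterozygote replicate 2 or 3 at 8 mpf, with adjusted p-values (edgeR) from 0.0517 to 0.109 and log2 fold changes from 0.20 to 0.26. With no filter on low counts its adjusted p was 0.0628, and with only the groups compared it was 0.0745 (edgeR).

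**Figure D2:**
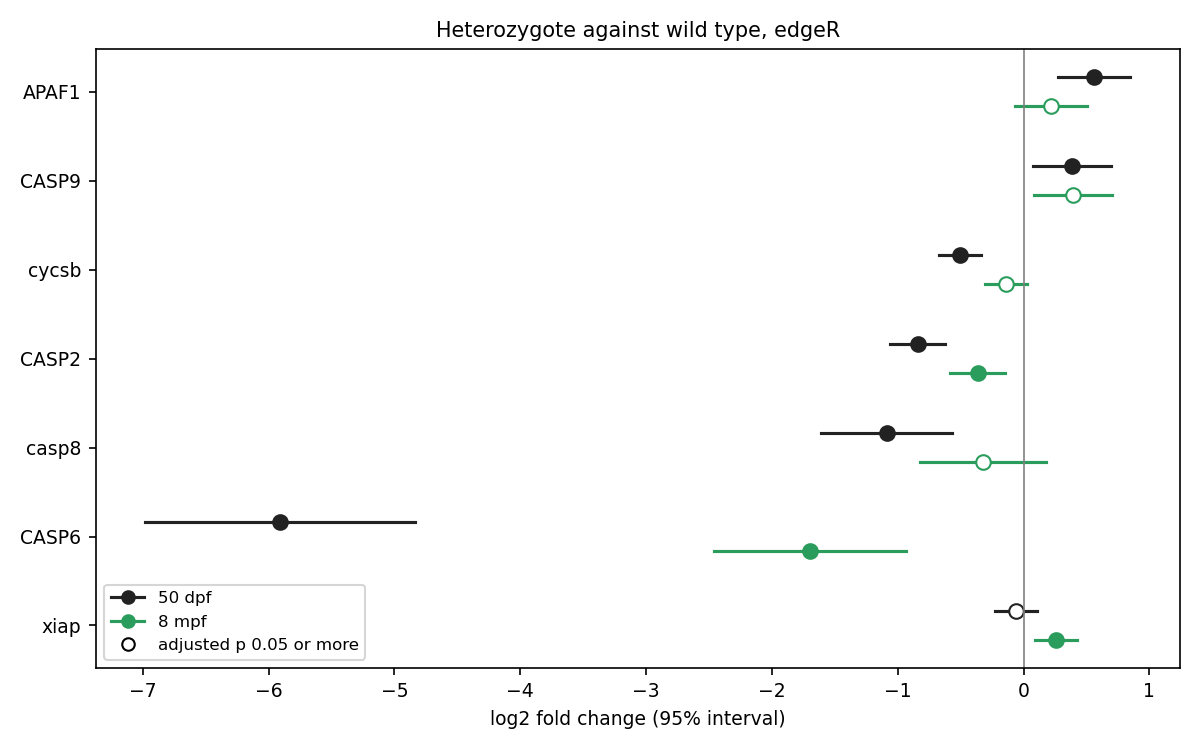
Log2 fold change of heterozygotes against wild type (horizontal axis) with its 95% interval, by gene, at 50 dpf and at 8 mpf, from the edgeR fit. Filled points have an adjusted p under 0.05, and CASP6 stands at -5.91 at 50 dpf and at -1.70 at 8 mpf.

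CPM without overlap between genotypes was found for 2 genes higher and 4 lower in heterozygotes at 50 dpf, against 57.4% of all genes in either direction. At 8 mpf it was found for 1 higher and 3 lower, against 47.0% of all genes. CASP2 and CASP6 passed the test as lower at both ages, 2 of 7 genes against 8.65% of all genes tested. The effects at the 2 ages come from separate libraries.

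The difference between the genotype effects at the 2 ages was tested as an interaction, 8 mpf less 50 dpf. CASP6, CASP2 and cycsb passed, 3 of 7 against 13.5% of all genes (6.88% with a positive and 6.65% with a negative difference), each with a smaller deficit in heterozygotes at 8 mpf. The difference was 4.21 (SE 0.64, adjusted p = 0.00111 by edgeR) for CASP6, and it passed under all but 1 of 21 alternatives. Its size ran from 3.58 to 5.65 over these and is uncertain, since the heterozygotes held 2, 5 and 0 counts at 50 dpf. For CASP2 the difference was 0.47 (SE 0.14, adjusted p = 0.0437 by edgeR), and it was lost under 16 of 21 alternatives. These include leaving out any 1 library except wild-type replicate 2 at 8 mpf (adjusted p from 0.0530 to 0.105, differences from 0.41 to 0.52, edgeR). For cycsb it was 0.37 (SE 0.11, adjusted p = 0.0405 by edgeR), and it was lost under 12 of 21 alternatives. These include leaving out any 1 library except heterozygote replicate 1 at 50 dpf and wild-type replicate 2 at 8 mpf (adjusted p from 0.0573 to 0.0998, differences from 0.34 to 0.41, edgeR). For casp8 the difference of 0.77 had an adjusted p of 0.152 by edgeR, and leaving out wild-type replicate 2 of 8 mpf gave 1.12 with an adjusted p of 0.00859. APAF1 (-0.34, 95% interval -0.75 to 0.07) and xiap (0.32, 95% interval 0.08 to 0.56) did not pass, with adjusted p-values (edgeR) of 0.262 and 0.0721. xiap passed with library size alone (0.47, adjusted p = 0.0171, edgeR), by DESeq2 (adjusted p = 0.00911) and by limma-trend with a pseudocount of 0.1 (adjusted p = 0.0494). For CASP9 the difference was 0.00 (95% interval -0.43 to 0.44).

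With age, 4 of the 7 genes changed in wild type, against 55.2% of all genes (28.7% higher, 26.5% lower at 8 mpf), and 2 changed in heterozygotes, against 53.9% (28.5% higher, 25.5% lower). In wild type, CASP2 fell by 0.36, cycsb by 0.32, xiap by 0.38 and CASP6 by 1.53 on the log2 scale between the ages. Their adjusted p-values (edgeR) were 0.00851, 0.00332, 0.00110 and 0.00155. For CASP2 in wild type, library size alone gave -0.28 (adjusted p = 0.0922, edgeR). The fall of CASP6 in wild type had adjusted p-values of 0.0546 and 0.312 by limma-trend with pseudocounts of 1 and 0.1.

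In heterozygotes CASP6 rose from 0.0818 to 0.529 CPM, and the fitted change of 2.68 (log2, SE 0.56, adjusted p = 0.00149 by edgeR) was opposite in sign to wild type; limma-trend with a pseudocount of 0.1 gave 4.08. casp8 rose by 0.62 (adjusted p = 0.0448, edgeR), a call lost under 14 of 22 alternatives. Of those, 10 left out 1 library, with adjusted p-values (edgeR) from 0.0517 to 0.151 and log2 fold changes from 0.49 to 0.70. They were any 1 library of the heterozygotes or of wild type at 50 dpf, and wild-type replicate 3 at 8 mpf. CASP2, cycsb and xiap, which had fallen in wild type, had changes of 0.11, 0.05 and -0.06 in heterozygotes, with 95% intervals of -0.10 to 0.33, -0.12 to 0.21 and -0.23 to 0.10. APAF1 (0.33 and -0.01) and CASP9 (-0.32 and -0.32) did not pass in either genotype. CASP9 passed in both under RLE scaling (-0.37 in wild type, -0.35 in heterozygotes), under upper quartile scaling (-0.48 and -0.49), by DESeq2 and by limma-trend, with adjusted p-values from 0.0126 to 0.0462. APAF1 passed in wild type with library size alone (0.39, adjusted p = 0.00874, edgeR), with no filter on low counts and with only the groups compared. In heterozygotes CASP2 (0.34, adjusted p = 0.0490, edgeR) and cycsb (0.27, adjusted p = 0.00958, edgeR) passed with library size alone, and xiap passed under upper quartile scaling (-0.24, adjusted p = 0.0185, edgeR). Without wild-type replicate 2 at 8 mpf, all 7 genes passed in wild type, 1 higher and 6 lower. casp8 was then at -0.49 (adjusted p = 0.0345, edgeR), CASP9 at -0.48 (adjusted p = 0.00612, edgeR) and APAF1 at 0.47 (adjusted p = 0.00521, edgeR). In heterozygotes CASP9 was then at -0.31 (adjusted p = 0.0310, edgeR), and it was at -0.42 (adjusted p = 0.0445, edgeR) without heterozygote replicate 3 at 8 mpf. APAF1 in wild type also passed without heterozygote replicate 1 at 50 dpf (0.35, adjusted p = 0.0347, edgeR) and without heterozygote replicate 3 at 8 mpf (0.33, adjusted p = 0.0499, edgeR). By direction, wild type gave 0 higher and 4 lower, but 0 and 5 under RLE and upper quartile scaling and 1 and 3 with library size alone. Heterozygotes gave 2 higher and 0 lower, but 1 and 2 under upper quartile scaling, 1 and 1 under RLE scaling and 4 and 0 with library size alone. Upper quartile scaling moved the median of all genes by -0.16 in both age comparisons, and library size alone moved it by 0.22 in heterozygotes. Of all genes called in wild type, 48.4%, 41.6% and 56.5% were higher under RLE, upper quartile and library size scaling. In heterozygotes these shares were 50.2%, 42.1% and 65.9%. The groups of the age comparisons are those of the genotype comparisons, so these changes share their libraries. CPM without overlap between ages was found for 0 genes higher and 5 lower at 8 mpf in wild type (66.3% of all genes) and for 2 higher and 1 lower in heterozygotes (62.7%).

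**Figure D3:**
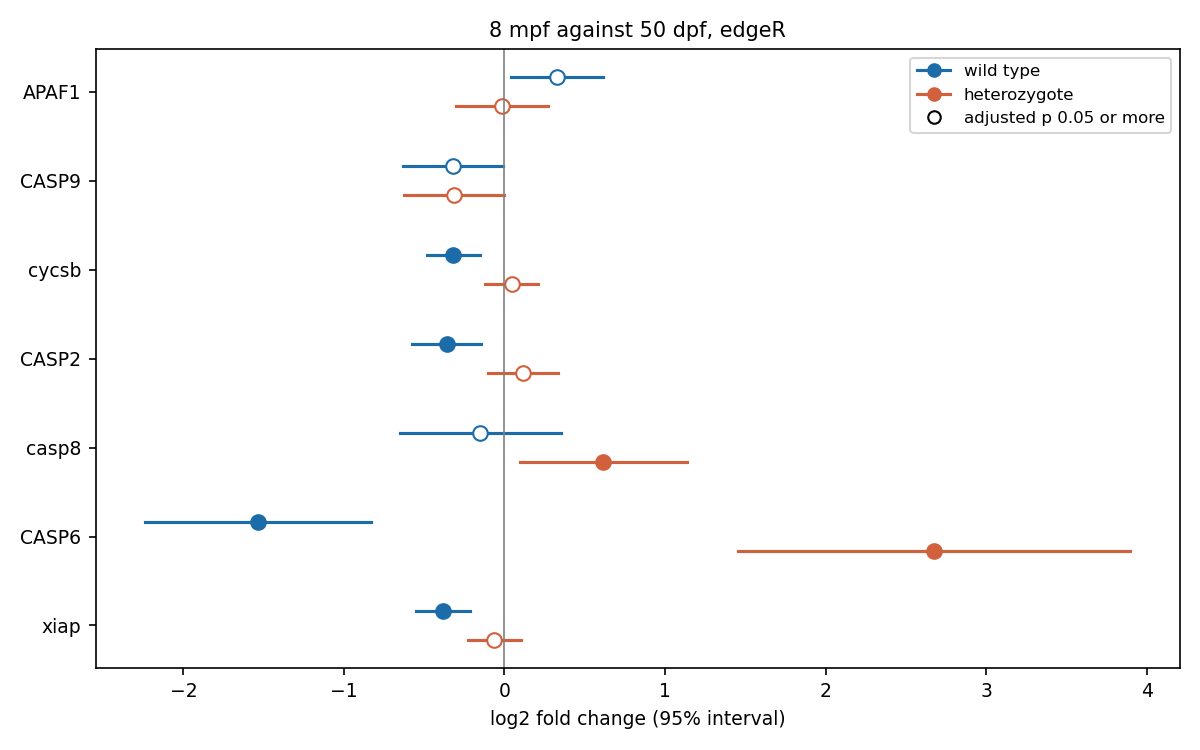
Log2 fold change of 8 mpf against 50 dpf (horizontal axis) with its 95% interval, by gene, in wild type and in heterozygotes, from the edgeR fit. Filled points have an adjusted p under 0.05; CASP6 lies at -1.53 in wild type and at 2.68 in heterozygotes.

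The order of the group means differed among the genes. For CASP2, CASP6, casp8 and cycsb it ran from wild type at 50 dpf through wild type at 8 mpf and heterozygotes at 8 mpf down to heterozygotes at 50 dpf. All neighbours in that order were free of overlap for CASP6. For CASP2 and cycsb both heterozygous groups overlapped. For casp8 the neighbours overlapped except the heterozygotes at 8 mpf and at 50 dpf. APAF1 and CASP9 began with the heterozygotes at 50 dpf, followed by those at 8 mpf. All neighbours overlapped for APAF1. For CASP9, wild type at 50 dpf came next, overlapping with the heterozygotes at 8 mpf, and wild type at 8 mpf was lowest, without overlap. For xiap, both 50 dpf groups and the heterozygotes at 8 mpf overlapped with their neighbours, and wild type at 8 mpf lay below them.

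A ratio to APAF1 within each library needs no scaling and shows unequal change, though not its direction in either gene. Per 100 APAF1 counts, cycsb held 115, 129 and 106 counts in wild type and 52.7, 57.9 and 55.5 counts in heterozygotes at 50 dpf. CASP2 held 19.7, 22.8 and 19.4 counts per 100 APAF1 counts in wild type and 7.12, 7.92 and 8.37 counts in heterozygotes. The groups were far apart for both genes. CASP9 held 8.13 ± 0.671 counts in wild type and 7.18 ± 0.375 counts in heterozygotes per 100 APAF1 counts (SD, n = 3), and these groups did not overlap either. At 8 mpf, cycsb held 75.2 ± 11.4 and 58.2 ± 7.96 counts and CASP2 13.2 ± 3.77 and 8.62 ± 1.67 counts per 100 APAF1 counts in wild type and heterozygotes (SD, n = 3), and both pairs overlapped. APAF1 itself differed at 50 dpf, and the ratios of casp8, CASP6 and xiap did not overlap there either. For xiap, whose CPM overlapped, the ratio was 34.2 ± 4.19 counts in wild type and 22.1 ± 0.973 counts in heterozygotes (SD, n = 3). At 8 mpf only the ratio of CASP6 was free of overlap. A two-sided exact permutation test of the log2 ratios (n = 3 and 3) gave p = 0.1 for cycsb, CASP2 and CASP9 at 50 dpf, the smallest it can give, and p = 0.2 for cycsb and CASP2 at 8 mpf, so no ratio could pass the threshold.

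**Figure D4:**
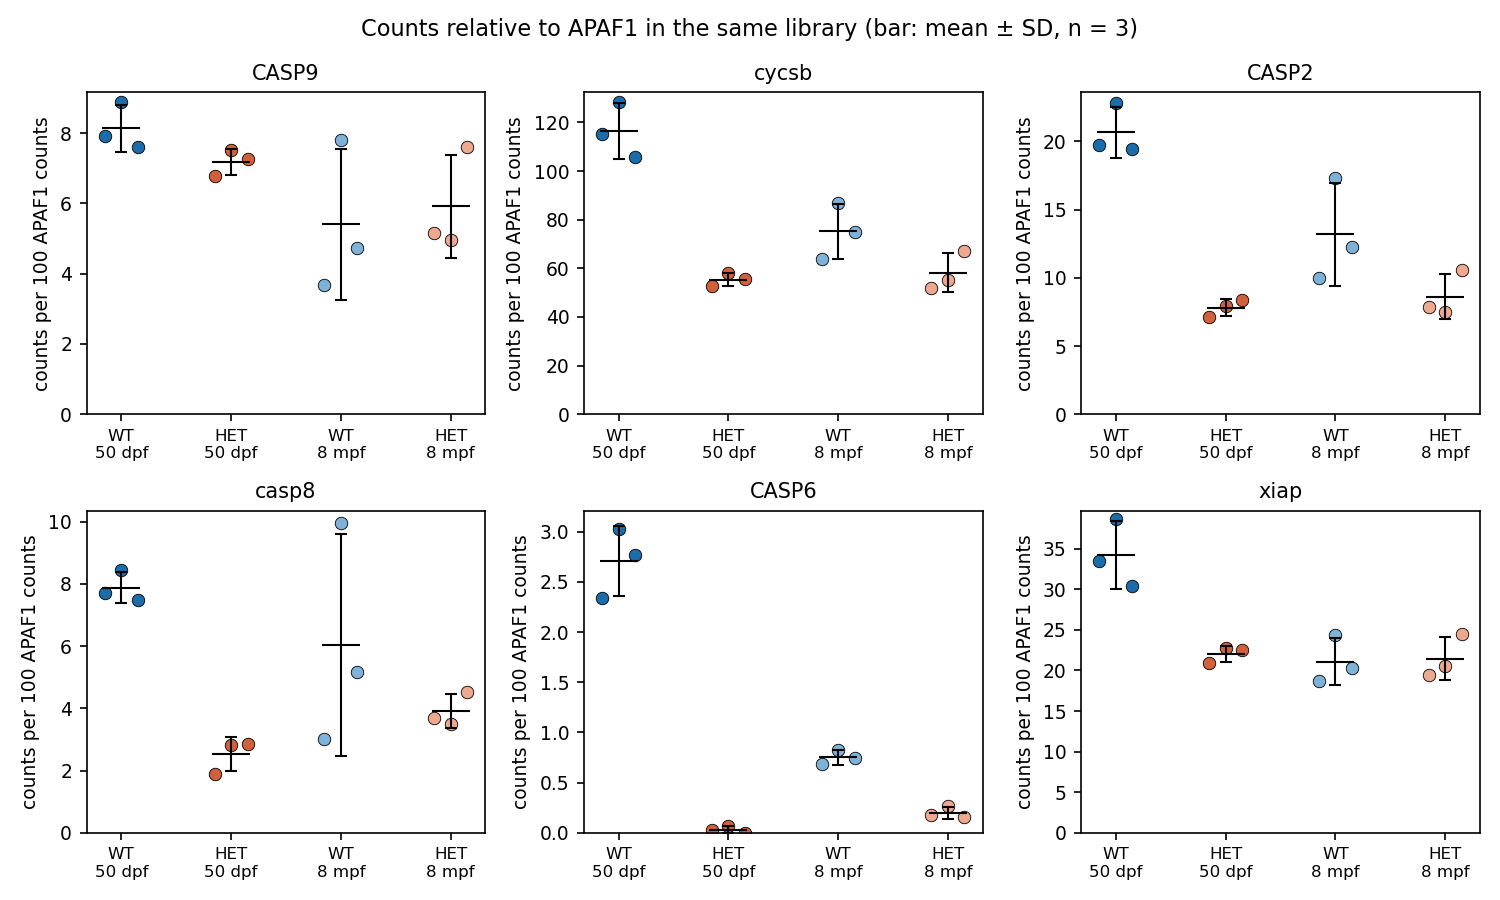
Counts of 6 genes per 100 APAF1 counts in the same library (linear axis from 0), with the mean and SD of 3 libraries per group as bars. cycsb stands at 116 in wild type and at 55.4 in heterozygotes at 50 dpf, while CASP9 stands at 8.13 and 7.18.

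Similarity of pattern over the 12 libraries was ranked by Pearson's r of log2 CPM, among genes with a symbol that is not a clone name. The most similar genes were trim35-40 (r = 0.984) and fastkd2 (r = 0.982) for CASP2. They were dbpb (0.979) and L3HYPDH (0.966) for CASP6, and ITPA (0.984) and ZNF503 (0.982) for cycsb. Among the 7 genes themselves, CASP2 ran with cycsb (r = 0.917) and against APAF1 (r = -0.912) over the 12 libraries. These correlations describe points that share group, depth and scaling.

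The rest of the pathway was taken from 5 lists written by role. On the death receptor side, 15 genes were tested; 2 were higher, 4 lower and 9 not called in heterozygotes at 50 dpf, where 40.8% of all genes were called (19.6% higher, 21.2% lower), a share like that of the list. The median log2 fold change was -0.27 (-0.07 over all genes). Lower were cflara (11.1 to 4.36 CPM, log2 fold change -1.34), a gene for the c-FLIP protein that blocks caspase-8 activation, and the ligand gene faslg (1.87 to 0.305 CPM, -2.62). ripk1l, named for its likeness to the kinase RIPK1, had 23 counts in wild type and 0 in heterozygotes, at least 4.64-fold lower when the floor is set at 3 counts over the group. The adaptors tradd (49.1 to 63.3 CPM, 0.37) and CRADD (4.08 to 5.78 CPM, 0.50) were higher. Adjusted p-values of these 5 (edgeR) ran from 0.0100 to 0.0284. With library size alone 0 were higher and 7 lower, where 19.3% of all genes called were higher. At 8 mpf, with 28.1% of all genes called, 0 of the 15 were called by edgeR and 0 by DESeq2, with 2 at an unadjusted p under 0.05 (edgeR), and tradd measured 58.3 and 70.9 CPM.

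Of the other caspases, 3 of 8 gene IDs had enough counts to be tested. At 50 dpf casp6b.1, described above with CASP6, was lower and 0 were higher (40.8% of all genes called). At 8 mpf, with 28.1% of all genes called, casp6b.1 was lower (1.37 to 0.695 CPM, -0.99) and casp23 higher (3.74 to 5.86 CPM, 0.65), with adjusted p-values (edgeR) of 0.0181 and 0.0215. With library size alone casp23 was not called and 1 was lower, where 24.9% of all genes called were higher.

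The list of IAP (inhibitor of apoptosis) genes and their antagonists held 20 tested genes, 13 of them IDs of the name HTRA2, a mitochondrial protease that antagonises IAPs. At 50 dpf 1 was higher and 2 lower (19.6% and 21.2% of all genes), with a median of -0.02. Of the HTRA2 IDs 0 were called at that age. Without them, a count added after the values were seen, 1 was higher and 2 lower of 7 genes, with a median of 0.25. birc5b, a survivin gene that also serves chromosome segregation, was higher (285 to 447 CPM, 0.65). xaf1, whose human counterpart antagonises XIAP, was lower (10.5 to 3.55 CPM, -1.56), as was BIRC6 (26.7 to 18.6 CPM, -0.52), a large IAP. With library size alone 1 was higher and 5 lower, where 19.3% of all genes called were higher. At 8 mpf 14 were higher and 0 lower (12.6% and 15.5% of all genes), with a median of 1.09 against 0.01 over all genes, and all 13 HTRA2 IDs were among them. HTRA2 ENSDARG00000069909 measured 7.60 CPM in wild type, against 15.4 CPM in heterozygotes (1.02, adjusted p = 4.84e-05 by edgeR). HTRA2 ENSDARG00000095545 measured 0.659 and 1.71 CPM (1.38), and HTRA2 ENSDARG00000092202 1.38 and 2.95 CPM. Near copies can share reads, so the HTRA2 IDs are not independent and their split is uncertain. Without them, a count added after the values were seen, 1 of 7 genes was higher at 8 mpf, with a median of 0.09.

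Among 14 tested genes of mitochondrial release and DNA cleavage, 4 were higher and 3 lower at 50 dpf (19.6% and 21.2% of all genes), with a median of 0.01. Higher were the outer membrane channel genes VDAC1 (189 to 298 CPM, 0.66) and VDAC3 (74.5 to 91.4 CPM, 0.29) and the lamin gene LMNB1 (151 to 190 CPM, 0.33). With library size alone the signs of VDAC3 (-0.039) and LMNB1 (-0.0025) turned, and the split was 1 to 4; by upper quartile it was 1 to 3. Lower were LMNB2 (11.4 to 5.82 CPM, -0.97) and LMNA (25.2 to 13.8 CPM, -0.87), the lamin gene whose human product caspase-6 cleaves, and AIFM2 (23.5 to 13.4 CPM, -0.81), a gene of the AIF family of oxidoreductases. At 8 mpf LMNA (-0.58) and LMNB2 (9.17 to 6.71 CPM, -0.45) were lower again. The mitochondrial nuclease gene ENDOG (4.40 to 6.58 CPM, 0.58) and PARP2 (38.9 to 52.0 CPM, 0.42) were higher. The call of PARP2 (adjusted p = 0.0488, edgeR) held under 9 of 22 alternatives, and without wild-type replicate 1 at 8 mpf its change was 0.28 (adjusted p = 0.171, edgeR). Either of these scalings left 0 higher and 2 lower at 8 mpf.

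The BCL2 family, which controls cytochrome c release, had 1 gene higher, 4 lower and 11 not called of 16 tested at 50 dpf (19.6% higher and 21.2% lower over all genes), with a median of -0.24. BOK ENSDARG00000052129 (9.36 to 4.09 CPM, -1.19, adjusted p = 1.16e-05 by edgeR), a BAX-like member, was lower. The other BOK ID, ENSDARG00000008807, was not called (142 to 166 CPM, 0.22, adjusted p = 0.271 by edgeR). The BH3-only genes bida (27.7 to 17.8 CPM, -0.64) and bbc3 (1.24 to 0.480 CPM, -1.35) were lower. The survival gene mcl1a was higher (640 to 856 CPM, 0.42, adjusted p = 0.0458 by edgeR), a call that held under 5 of 22 alternatives. At 8 mpf bbc3, which encodes PUMA, was lower (2.01 to 0.371 CPM, -2.43, adjusted p = 9.49e-04 by edgeR), as was bcl2a (8.02 to 5.68 CPM, -0.50), and bcl2l10 was higher (154 to 200 CPM, 0.38, and 0.23 without wild-type replicate 2 of that age). The split between higher and lower was 0 to 8 at 50 dpf and 0 to 3 at 8 mpf with library size alone, and 0 to 5 and 0 to 2 by upper quartile.

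Of the 19 calls named from these lists at 50 dpf, 9 held under every alternative tried. They were those of cflara, birc5b, xaf1, VDAC1, AIFM2, LMNB2, LMNA, BOK ENSDARG00000052129 and bida. At 8 mpf 4 of 12 held, those of bbc3 and of the 3 HTRA2 IDs named above. Over the 5 lists together, 22 of 68 genes (32.4%) were called at 50 dpf, against 40.8% of all genes. Without the 13 HTRA2 IDs, 0 of them called there, it was 22 of 55 (40.0%), a share like that of all genes. That count was also added after the values were seen. Of the 68, the number called was 12, 11 and 14 without wild-type replicates 1, 2 and 3 of that age. It was 14 without heterozygote replicate 2. Over all genes, the calls went from 7691 to 6062, 5885, 6160 and 6638 in those fits. At 8 mpf 23 of the 68 were called (33.8%, against 28.1% of all genes), and 14 without heterozygote replicate 2 or 3. Over all genes, the calls went from 5288 to 4110 and 3821 in those fits. The 23 include the 13 HTRA2 IDs, and without those, a count added after the values were seen, 10 of 55 (18.2%) were called. For the difference between ages 8 of the 68 were called (11.8%, against 13.5% of all genes), or 2 of 55 without the HTRA2 IDs. Of the 68, 5 were left without wild-type replicate 3 at 50 dpf or heterozygote replicate 3 at 8 mpf. Without wild-type replicate 2 at 8 mpf 15 were found. Over all genes, the calls went from 2548 to 1825, 1879 and 4118 in those fits. Across ages, 13 of the 68 rose and 21 fell in wild type, where 28.7% of all genes rose and 26.5% fell. In heterozygotes 26 rose and 14 fell, against 28.5% and 25.5% of all genes. Without the HTRA2 IDs these were 8 and 20 of 55 in wild type and 13 and 14 in heterozygotes. Without heterozygote replicate 1 at 50 dpf, the calls of tradd, ripk1l, casp6b.1, bbc3, BIRC6 (-0.30, adjusted p = 0.0682 by edgeR) and mcl1a (0.25, adjusted p = 0.170 by edgeR) at 50 dpf were lost.

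**Figure D5:**
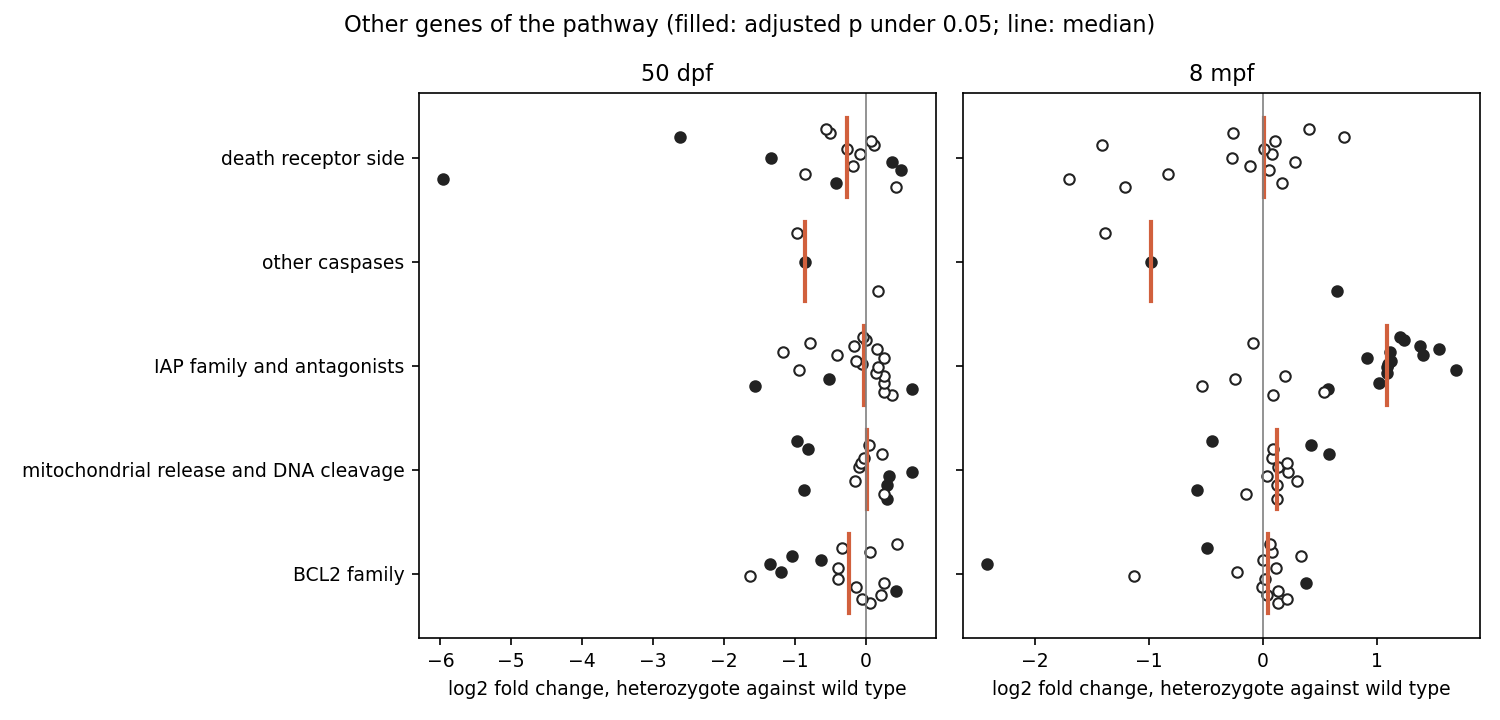
Log2 fold change of heterozygotes against wild type (horizontal axis) for every tested gene of the 5 lists, at 50 dpf and at 8 mpf; filled points have an adjusted p under 0.05 (edgeR) and vertical lines mark the list medians. The IAP list at 8 mpf, with its 13 HTRA2 IDs, has a median of 1.09.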

How the data were processed

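Per the labels, TRIzol served for extraction and a directional kit for the libraries. The submitters' processing notes name bcl2fastq, FastQC 0.11.5, HISAT2, StringTie, DESeq2 and the build GRCz11, without their roles; the annotation and the counting settings are not given in the sources used here. The authors deposited estimated counts per gene, already whole numbers and not normalized, and, in a second table, a normalized signal on a linear scale. That the counts are rounded estimates was inferred from the values.

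The name table matched 28988 of 32057 IDs. Of 26339 genes with a count, edgeR's filterByExpr on the 4 groups kept 18834. TMM set the scale, and edgeR's quasi-likelihood test was run in 1 fit of all 12 libraries, which share 1 estimate of the spread; the test was two-sided. P-values were adjusted by Benjamini-Hochberg within a contrast, with a threshold of 0.05. SE is the size of the log2 fold change over the root of the F statistic, and CPM uses TMM-scaled library sizes. Gene lengths were not used, so levels are not compared between genes. Replicate libraries differed by more than sampling noise and each counts once. The procedure was tested on simulated data. Counting floors cover counting error only.

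The 7 genes and the lists were chosen with earlier results of these data known. Some genes of the pathway are not reported here. All 7 genes are named, with up to 3 called genes of each list per direction and genotype contrast by smallest p. For genes called at both ages or in the difference between ages, the 2 genes with the highest Pearson's r are named. These 2 were taken among genes with a symbol that is not a clone name. For the age contrasts the lists are given as counts. Marker lists covered oocyte, follicle somatic cells, leukocytes, erythrocytes, stroma and liver. Summed erythrocyte markers ran from 17.4 to 45.9 CPM over all libraries. RefSeq (GRCz12tu) served for neighbouring genes only; sequences are not printed. Alternatives were RLE, upper quartile and library size scaling, DESeq2's Wald test, other filters, only the groups compared, the replicate number as a block, limma-trend on the deposited normalized value, and leaving out each library. Their use on the pathway lists was added after the data were seen. The statistics ran in R 4.3.3 with DESeq2 1.42.0, limma 3.58.1 and edgeR 4.0.16, and the figures in matplotlib 3.10.9 under Python 3.11.15.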

Additional observations from a re-analysis of the deposited data

Results flagged for a closer look

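These genes differed in their genotype effect between the ages by the interaction test of edgeR, given as the log2 effect at 8 mpf less that at 50 dpf. Among the caspase and apoptosome genes the difference was 4.21 for CASP6 ENSDARG00000093405 (adjusted p = 0.00111), 0.47 for CASP2 ENSDARG00000062052 (adjusted p = 0.0437) and 0.37 for cycsb ENSDARG00000044562 (adjusted p = 0.0405). The call was lost under 16 of 21 alternatives for CASP2 and under 12 of 21 for cycsb. CASP6 held 2, 5 and 0 counts in heterozygotes at 50 dpf, so the size of its difference is uncertain. Among the other pathway genes the difference was 0.89 for AIFM2 ENSDARG00000077549 (adjusted p = 0.00303) and 0.96 for BOK ENSDARG00000052129 (adjusted p = 0.00244). Of the 13 HTRA2 IDs 6 passed, each with a positive difference, against 13.5% of all genes (6.88% positive). These IDs can share reads and are not independent, and the 3 with the smallest p are given. Their difference was 2.64 for ENSDARG00000092061 (adjusted p = 0.00525), 0.77 for ENSDARG00000069909 (adjusted p = 0.0105) and 1.55 for ENSDARG00000095545 (adjusted p = 0.0127), by edgeR. AIFM2 measured 23.5 and 13.4 CPM in wild type and heterozygotes at 50 dpf and 18.9 and 20.1 CPM at 8 mpf. BOK ENSDARG00000052129 measured 9.36 and 4.09 CPM at 50 dpf and 6.49 and 5.52 CPM at 8 mpf. HTRA2 ENSDARG00000092061 measured 0.538 and 0.277 CPM at 50 dpf and 0.256 and 0.830 CPM at 8 mpf.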

How the results depend on the processing

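Of 1548 single-gene values under the alternatives, 1319 kept direction and side of the threshold, 177 lost the call, 34 gained one and 18 changed sign. The counts of caspase and apoptosome genes called stayed within 1.5 times except these. At 8 mpf (3 called) leaving out a library gave 1 to 4. For the difference between ages (3 called), no filter on low counts gave 1, the replicate block gave 1, and leaving out a library gave 1 to 4. With age, library size alone gave 4 in heterozygotes (2 called), and leaving out a library gave 1 to 3 there and 4 to 7 in wild type (4 called). For the 68 other pathway genes, leaving out a library gave 11 to 27 called at 50 dpf (22 called) and 14 to 25 at 8 mpf (23 called). For the difference between ages it gave 5 to 15 (8 called). Over all genes, leaving out a library gave 5885 to 8514 (7691 called), 3821 to 6365 (5288 called) and 1699 to 4118 (2548 called) in the same order. Signs changed as follows, with no call. Upper quartile scaling gave -0.013 for the CASP9 difference between ages, and -0.058 for CASP2 and -0.13 for cycsb with age in heterozygotes. Library size alone gave 0.22 for APAF1 and 0.16 for xiap with age in heterozygotes, and -0.039 for VDAC3 and -0.0025 for LMNB1 at 50 dpf. No filter gave 0.023 for APAF1 with age in heterozygotes. Leaving out a library also gave -0.59 to 0.015 for casp8 at 8 mpf and -0.12 to 0.18 for the CASP9 difference. It gave -0.49 to 0.11 for casp8 with age in wild type and -0.055 to 0.083 for APAF1 with age in heterozygotes. In these ranges the values of changed sign had no call, but the casp8 values of -0.59 and -0.49 did (adjusted p = 0.0277 and 0.0345, edgeR). The cause was not tested. The labels do not say whether libraries of the same replicate number belong together. Deviations of same-numbered libraries correlated from -0.16 to 0.10, which does not settle it. With the replicate block the calls of CASP9 at 50 dpf (adjusted p = 0.0579, edgeR) and of CASP2 and cycsb for the difference between ages (adjusted p = 0.0544 and 0.0650, edgeR) were lost. Fits of only the groups compared were not run for the difference between ages, which needs all groups. Summing IDs of a shared symbol was not run, since no 2 of the 7 genes share one. In heterozygotes at 50 dpf CASP6 held 2, 5 and 0 counts, so the size of its fold changes against that group is uncertain.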
